A study of Homo sapiens with 4 samples.

Results

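Genes of the absorptive enterocyte and its brush border were examined across 4 Affymetrix PrimeView arrays of Caco-2 and HCT116, 2 human lines from colorectal cancers. The set holds 41 genes listed by symbol, and 40 of them had a probe set paired with that gene alone, out of 18132 genes named in this way. PDZK1 had none, so its level was not analysed here. Each gene was represented by its brightest probe set (by mean level across the arrays), so the choice of probe set used the level and not the difference between groups.

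The 4 groups were Caco-2 cells with a negative control siRNA, Caco-2 cells with BORIS siRNA, HCT116 cells with the negative control siRNA and HCT116 cells with BORIS siRNA. Both lines are established lines grown in DMEM high glucose medium with serum, and RNA was taken after 3 days of silencing. The gene CTCFL encodes BORIS, which is related to the insulator protein CTCF. Each group held 1 array, nothing in the labels says whether the samples of a line came from separate cultures, and the labels do not give the density of the cells or their state of differentiation.

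The absorptive enterocyte lines the gut lumen with a brush border, a carpet of microvilli built on bundled actin. Its membrane carries disaccharidases and peptidases that complete digestion, and transporters that take up sugars, peptides and ions. Inside the cell, fatty acids are bound by small carrier proteins, re-esterified and packed with apolipoproteins into chylomicrons. Caco-2 cells are known for forming an enterocyte-like layer when kept long after confluence, and HCT116 cells are known as a poorly differentiated line.

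Expression is given on the log2 scale, as deposited for each probe set. An array's background was taken as the 95th percentile of its olfactory receptor probe sets, which lay between 4.80 and 5.15, and a gene counted as expressed when it reached the array median, 5.46 to 5.48, on at least 1 array. None of the 7 CTCFL probe sets reached the median of any array, so the extent of the knockdown could not be read from these arrays. Of 12 epithelial identity genes, 11 lay above background on each of the 4 arrays, among them the cadherin CDH1 and the claudins CLDN3, CLDN4 and CLDN7, and GPA33 lay at background. All 9 fibroblast markers lay at background on all 4 arrays. Of 9 measured blood cell markers, however, 4 were expressed, and 1 of these, ITGAM, was higher in Caco-2. Of 7 measured kidney proximal tubule markers 1, PAX8, was expressed. HBB read 6.38 to 6.64 and CD79A 5.90 to 6.46 over the 4 arrays. ESPN, SLC2A5, FABP6 in HCT116 and AADAC in HCT116 reached values in or near this range. What part unspecific signal has at such levels was not tested. The 24 poly-A spike-in probe sets had medians of 6.20 and 6.07 on the Caco-2 arrays with control and BORIS siRNA, and of 7.0 and 7.94 on the HCT116 arrays, so they were higher in HCT116 and, within it, higher with BORIS siRNA; their part in the results below was not tested.

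The label of the line was checked against such genes, and the Caco-2 arrays went against it in part. APOB, FABP1 and CDH17, which Caco-2 cells are known to express, lay at background on both Caco-2 arrays. The brightest probe set of APOA1, also known from them, did too, but another of its 6 probe sets read 5.08 on both, just above background. LYZ read 13.26 and 13.12 there and AGR2 10.79 and 10.60. VIL1 and LGALS4, also known from this line, were high. They were among 13 of the 40 measured genes expressed there, with DPP4, AADAC, MUC13, SLC2A2 and SLC5A1, each higher than in HCT116. The lines are identified here by their labels alone, so Caco-2 below means the arrays labelled Caco-2, and whether the values reflect the state of the cultures or the identity of the cells was not tested.

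Promoters of the set were read first, since the letters near a start site can be set beside the levels. RefSeq's promoter table (GRCh38.p14) holds 36 windows for 28 of the 41 genes, each from 250 bases before to 50 bases after a start. Windows are printed for MUC13, SLC5A1, AADAC and LGALS4, which were higher in Caco-2, and for SI and FABP1, classical enterocyte genes that lay at background on all arrays. They are written 5′ to 3′ on the gene's strand, and capitals mark matches, on either strand, to 4 motifs: TTTATNG for the CDX factors, GTTAAT for one arm of the HNF1 site, CAAAGTCCA for HNF4 and TATAAA for the TATA box. A CDX match on the other strand can overlap a TATA match, as it does once in FABP1. The windows are those of MUC13 (chr3:124934702-124935001, minus strand), SLC5A1 (chr22:32043011-32043310, plus strand), AADAC (chr3:151813866-151814165, plus strand), LGALS4 (chr19:38812896-38813195, minus strand), SI (chr3:165078447-165078746, minus strand) and FABP1 (chr2:88128013-88128312, minus strand).
MUC13: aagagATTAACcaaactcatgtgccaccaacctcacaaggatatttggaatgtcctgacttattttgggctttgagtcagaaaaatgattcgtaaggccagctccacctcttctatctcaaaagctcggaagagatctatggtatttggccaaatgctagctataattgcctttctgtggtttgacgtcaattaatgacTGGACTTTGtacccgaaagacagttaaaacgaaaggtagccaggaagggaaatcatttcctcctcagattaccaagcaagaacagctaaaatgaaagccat
SLC5A1: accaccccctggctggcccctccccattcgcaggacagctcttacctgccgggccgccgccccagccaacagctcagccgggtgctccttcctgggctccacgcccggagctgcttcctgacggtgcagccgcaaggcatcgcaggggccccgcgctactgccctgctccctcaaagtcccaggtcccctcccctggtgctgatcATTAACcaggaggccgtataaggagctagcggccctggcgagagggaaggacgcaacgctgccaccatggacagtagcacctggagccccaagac
AADAC: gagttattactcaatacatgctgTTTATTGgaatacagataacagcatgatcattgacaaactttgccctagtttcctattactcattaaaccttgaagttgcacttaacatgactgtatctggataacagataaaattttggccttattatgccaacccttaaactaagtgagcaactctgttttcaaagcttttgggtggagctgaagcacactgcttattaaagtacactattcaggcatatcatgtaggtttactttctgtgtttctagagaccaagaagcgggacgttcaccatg
LGALS4: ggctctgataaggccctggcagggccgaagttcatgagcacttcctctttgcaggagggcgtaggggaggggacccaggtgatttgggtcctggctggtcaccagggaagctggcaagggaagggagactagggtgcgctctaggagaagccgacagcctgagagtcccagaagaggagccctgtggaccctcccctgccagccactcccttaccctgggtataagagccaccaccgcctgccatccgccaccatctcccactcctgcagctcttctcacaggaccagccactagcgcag
SI: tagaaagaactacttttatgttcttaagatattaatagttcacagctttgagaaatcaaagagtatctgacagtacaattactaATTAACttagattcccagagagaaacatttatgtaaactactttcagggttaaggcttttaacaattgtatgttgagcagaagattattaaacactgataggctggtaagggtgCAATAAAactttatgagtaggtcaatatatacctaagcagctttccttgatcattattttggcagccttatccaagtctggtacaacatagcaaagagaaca
FABP1: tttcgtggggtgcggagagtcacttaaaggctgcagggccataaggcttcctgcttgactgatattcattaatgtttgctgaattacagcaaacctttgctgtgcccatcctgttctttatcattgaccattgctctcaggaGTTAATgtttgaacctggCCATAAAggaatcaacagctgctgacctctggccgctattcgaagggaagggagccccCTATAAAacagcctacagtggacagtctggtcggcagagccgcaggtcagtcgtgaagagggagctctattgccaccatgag

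In these windows MUC13 held an HNF4 match, on the other strand, from -51 to -43 relative to the start and an HNF1 match further upstream. The SLC5A1 window had an HNF1 match from -45 to -40, and AADAC a CDX match from -227 to -221. LGALS4, bright in Caco-2 and at background in HCT116, held none of the 4. SI, with no signal above background, held a CDX match from -52 to -46 and an HNF1 match, and FABP1 held matches to CDX, HNF1 and TATA. Of the 28 genes, 8 (28.6%) had a CDX match in at least 1 window, against 11.9% of all 27305 genes in the table. An HNF1 match was likewise found for 8 genes (28.6%), against 8.27%, an HNF4 match for 4 (14.3%), against 0.472%, and a TATA match for 6 (21.4%), against 14%. The 4 genes with the HNF4 match were MUC13, MYO1A, PDZK1 and TREH. PDZK1 counts in these shares although its level was not measured. Of 7 genes of the set that were higher in Caco-2 and have a window, 3 held at least 1 of the motifs, and of 15 that lay at background on all arrays, 10 did. These shares describe letters in short windows and carry no test.

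Most of the set was not measurable in either line. Of the 40 genes, 23 lay at background on all 4 arrays, where 33.5% of all 18132 genes did. CDHR5, APOA1 and GUCA2A lay above background on at least 1 array but below the array medians. The remaining 14 were expressed, 13 of them in Caco-2 and 9 in HCT116, and 61.6% of all genes were expressed on at least 1 array. The genes that were expressed are VIL1, EZR, PLS1, ESPN, USH1C, DPP4, FABP6, AADAC, SLC5A1, SLC2A2, SLC2A5, CA2, LGALS4 and MUC13. A gene at background may still be transcribed at a level these arrays do not detect. In RNA from whole cultures, fewer cells that express a gene and less RNA per cell cannot be told apart.

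**Figure D1:**
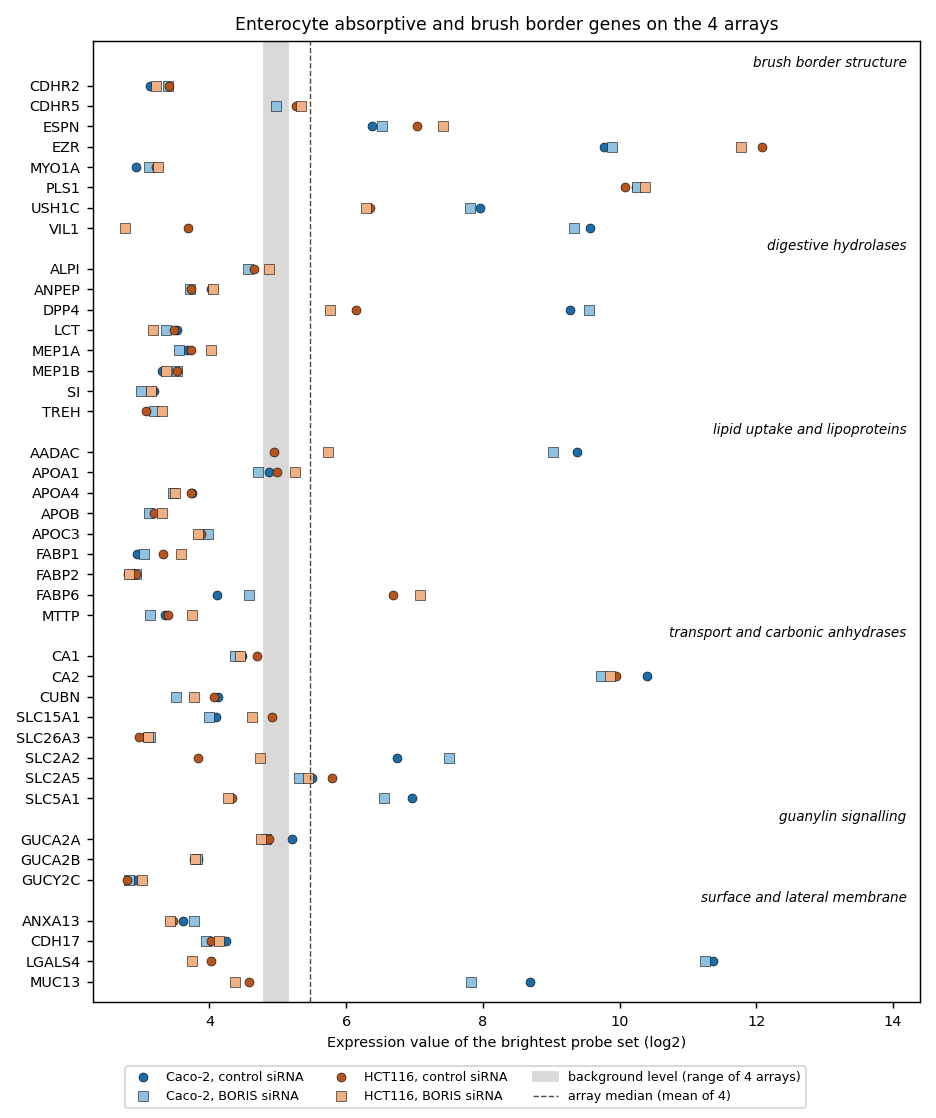
Log2 expression value (x axis) of the brightest probe set of each of the 40 measured genes on each of the 4 arrays, by role; the grey band is the background level of 4.80 to 5.15 and the dashed line the array median. The points of 14 genes reach the median on at least 1 array, while those of 23 genes stay at background on every array.

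The question behind the line comparison is how far the absorptive programme differs between Caco-2 and HCT116. It was tested with limma on all 4 arrays with siRNA as a block, over the 11165 genes expressed on at least 1 array, with Benjamini-Hochberg adjustment over all of them. Higher in Caco-2 were 8 of the set (VIL1, USH1C, DPP4, AADAC, SLC5A1, SLC2A2, LGALS4 and MUC13), where 19.8% of all genes tested were higher in Caco-2. Higher in HCT116 were EZR, FABP6 and ESPN, where 19.4% of all genes were. Called in either direction were 11 of the 14, against 39.2% of all genes. PLS1, SLC2A5 and CA2 did not pass the test. The values of the lines did not overlap for 11 of the 14 genes, which are those past the test, and did not overlap for 71.1% of all genes tested.

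These counts are shaped by the filter, since 5 of the 14 genes were expressed in Caco-2 only and 1, FABP6, in HCT116 only. Being expressed in 1 line only favours a difference, though it does not force one. Of the 8 genes expressed in both lines, 3 were higher in Caco-2, 2 were higher in HCT116 and 3 did not pass the test. Over all genes tested, whether expressed in 1 line or both, 19.8% were higher in Caco-2 and 19.4% in HCT116. Over all 40 measured genes the median difference was -0.01, beside -0.05 over all 18132 genes. Since 23 of the 40 lay at background on all 4 arrays, that median had to fall among differences of background values. It therefore says nothing of the expressed genes. Each line stands for 2 arrays with different siRNAs, and only 1 residual degree of freedom remained. That residual is the disagreement between the line differences with the 2 siRNAs, with variances borrowed across genes. The p-values rest on this disagreement and on no spread between replicates. It may be technical, and a siRNA response that differs between the lines would enter it.

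**Figure D2:**
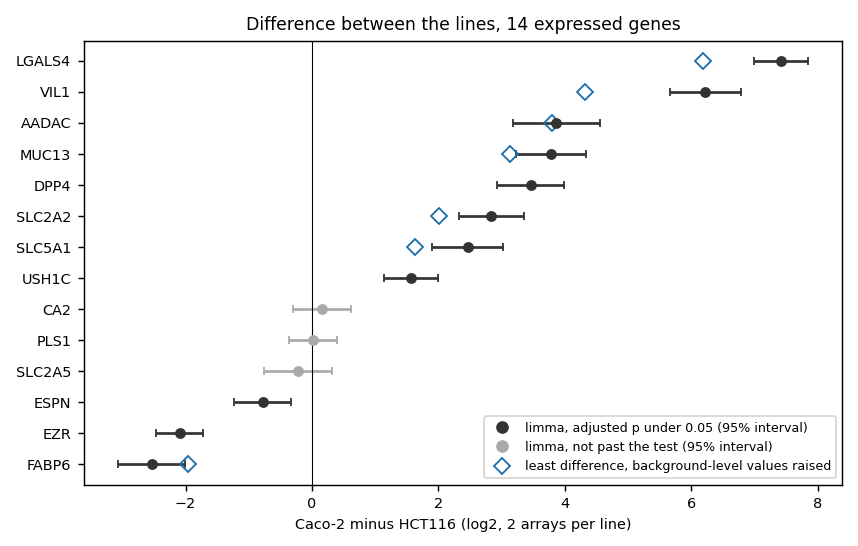
Caco-2 minus HCT116 in log2 units (x axis) for the 14 expressed genes, as the limma estimate with its 95% interval; dark points passed the test. Diamonds give the least difference once values at background are raised to that level, from 6.18 for LGALS4 down to 1.64 for SLC5A1 among the genes higher in Caco-2 that have a value at background.

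The microvillus structure genes split between the lines. VIL1, villin, which bundles and severs actin in the microvillus, read 9.57 with control and 9.33 with BORIS siRNA in Caco-2, and 3.68 and 2.77 in HCT116. It was high on both Caco-2 arrays and at background on both HCT116 arrays, so the difference is at least 4.33 (limma estimate 6.22, standard error 0.23, adjusted p = 1.4e-05). VIL1 has 3 probe sets, of which 1 lay at background on all arrays, and as their mean the gene differed by 2.87. USH1C, harmonin, a scaffold of the links between microvilli, read 7.95 and 7.81 in Caco-2 against 6.35 and 6.28 in HCT116. It was above the median on every array and higher in Caco-2 by 1.56 (standard error 0.18, limma adjusted p = 0.0011).

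EZR and ESPN ran the other way. EZR, ezrin, which ties the membrane to actin in many epithelia, read 9.77 and 9.89 in Caco-2 and 12.08 and 11.77 in HCT116. Both lines were bright and HCT116 was higher, with a limma difference of -2.09, a standard error of 0.16 and an adjusted p of 0.00017; all 5 EZR probe sets were higher in HCT116. ESPN, espin, another actin bundler, read 6.38 and 6.53 in Caco-2 and 7.03 and 7.42 in HCT116. The limma difference of -0.78 (standard error 0.19, adjusted p = 0.018) lost its call when either Caco-2 array or the HCT116 array with BORIS siRNA was left out, in fits without the siRNA block, at adjusted p = 0.13, 0.061 and 0.055. ESPN was measured by 1 probe set of the _s_at kind, which can bind related transcripts. Between the lines the poly-A spike-ins differed by a median of -1.21, in the direction of EZR and ESPN and wider than ESPN. Their part in these differences was not tested.

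PLS1, plastin, the third actin bundler of the set, was bright and level, at 10.24 and 10.25 in Caco-2 and 10.08 and 10.37 in HCT116. The limma difference was 0.02 with an interval of -0.36 to 0.40. MYO1A, the brush border myosin, read 2.93 to 3.25 and CDHR2, a cadherin that links microvillus tips, 3.13 to 3.42, both at background on every array. CDHR5, the partner cadherin of CDHR2, read 5.29 and 4.98 in Caco-2 and 5.26 and 5.34 in HCT116, above background but below the medians. The scaffold USH1C was therefore measured without a measurable CDHR2.

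Of the 8 digestive hydrolases only DPP4 was expressed. DPP4, a dipeptidyl peptidase of the membrane, read 9.27 with control and 9.55 with BORIS siRNA in Caco-2, and 6.15 and 5.76 in HCT116. Both lines lay above the median and Caco-2 was higher by 3.46, or 11.0-fold (standard error 0.22, limma adjusted p = 8.6e-05), with both DPP4 probe sets in the same direction. The other 7 lay at background on all 4 arrays. Values were 2.99 to 3.19 for SI, sucrase-isomaltase, 3.17 to 3.52 for LCT, lactase, 3.07 to 3.31 for TREH, trehalase, and 4.57 to 4.87 for ALPI, the intestinal alkaline phosphatase. ANPEP, aminopeptidase N, read 3.72 to 4.06, and the meprin subunits MEP1A and MEP1B 3.56 to 4.02 and 3.30 to 3.52. The sugar-splitting enzymes SI, LCT and TREH were thus not detected in these cultures, Caco-2 included.

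Lipid genes showed a like pattern, with AADAC and FABP6 expressed and the others not. AADAC, an esterase of the endoplasmic reticulum in liver and gut, read 9.38 and 9.03 in Caco-2 and 4.94 and 5.73 in HCT116. It was high in Caco-2, and in HCT116 it lay at background with control siRNA and just above the median with BORIS siRNA, so the difference is at least 3.79 (limma estimate 3.87, standard error 0.28, adjusted p = 0.00016). FABP6, the bile acid-binding protein of the ileum, read 4.12 and 4.58 in Caco-2, both at background, and 6.69 and 7.08 in HCT116. HCT116 was higher by at least 3.90-fold, with a limma difference of -2.54 (standard error 0.22, adjusted p = 0.00032) from 1 probe set.

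The fatty acid carriers and the chylomicron genes gave no signal to compare. FABP1 read 2.93 to 3.58 and FABP2 2.81 to 2.93. APOB, the structural apolipoprotein of the chylomicron, read 3.12 to 3.31 and none of its 4 probe sets lay above background. MTTP, which loads lipid onto APOB, read 3.12 to 3.75, APOA4 3.47 to 3.75 and APOC3 3.83 to 3.98. APOA1 read 4.88 and 4.70 in Caco-2 and 4.98 and 5.26 in HCT116 with its brightest probe set, above background only on the last of these arrays. Another APOA1 probe set read 5.08 on both Caco-2 arrays, just above background, and 4.52 and 4.89 in HCT116, at background.

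Among the transport genes the sodium-coupled glucose transporter SLC5A1 and the glucose carrier SLC2A2 were expressed in Caco-2 only. SLC5A1 read 6.96 with control and 6.56 with BORIS siRNA in Caco-2, and 4.33 and 4.27, at background, in HCT116. The difference is at least 1.64 (limma estimate 2.46, standard error 0.23, adjusted p = 0.00046). SLC2A2 read 6.75 and 7.51 in Caco-2 and 3.84 and 4.74, again at background, in HCT116. It was higher in Caco-2 by at least 2.0 (limma estimate 2.84, standard error 0.22, adjusted p = 0.00018), and all 4 SLC2A2 probe sets were higher there. The size depends on the probe set, as the others differed by 2.01, 3.97 and 4.79, and the mean of all probe sets by 3.40.

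SLC2A5, the fructose carrier, lay close to the medians, at 5.5 and 5.30 in Caco-2 and 5.79 and 5.44 in HCT116. The lines overlapped, with a limma difference of -0.22 and an interval of -0.75 to 0.32. CA2, a cytosolic carbonic anhydrase, was bright in both lines, at 10.40 and 9.73 in Caco-2 and 9.94 and 9.86 in HCT116. Here too the lines overlapped, the difference being 0.16 with an interval of -0.30 to 0.62. SLC15A1, the peptide transporter, lay at background on all arrays, as did CA1, a second carbonic anhydrase (4.38 to 4.70), the chloride exchanger SLC26A3 (2.97 to 3.13) and CUBN, cubilin, a receptor for intrinsic factor (3.50 to 4.12). SLC15A1 read 4.10 and 3.99 in Caco-2 and 4.92 and 4.62 in HCT116, and without a filter on dim probe sets it differed by -0.73 with a limma adjusted p of 0.0401, a value that has no fold because both lines lay at background.

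The guanylin genes gave no call. GUCA2A, guanylin, which sets salt and water secretion, read 5.21 and 4.83 in Caco-2, just above background, and 4.88 and 4.75, at background, in HCT116. GUCA2B, uroguanylin, read 3.78 to 3.83, and their receptor GUCY2C read 2.79 to 3.01, so neither the second ligand nor the receptor was detected.

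Of the 4 surface genes, LGALS4 and MUC13 were expressed, both in Caco-2 only. LGALS4, galectin-4, a sugar-binding protein of the gut epithelium, read 11.36 with control and 11.25 with BORIS siRNA in Caco-2, and 4.03 and 3.75 in HCT116. It was among the bright genes of the Caco-2 arrays and at background in HCT116, higher in Caco-2 by at least 6.18, or 72.7-fold (limma estimate 7.42, standard error 0.18, adjusted p = 5.7e-06). MUC13, a membrane mucin, read 8.68 and 7.82 in Caco-2 and 4.58 and 4.37, at background, in HCT116. The difference was at least 3.13 (limma estimate 3.78, standard error 0.23, adjusted p = 7.4e-05), and both MUC13 probe sets had it. CDH17, the liver-intestine cadherin, read 3.94 to 4.24 and ANXA13, an annexin of the intestinal surface, 3.43 to 3.77, so both lay at background in Caco-2 as in HCT116.

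Probe sets of a gene ran together in the line comparison. Of the 14 expressed genes, 9 had more than 1 probe set above background, and in all 9 these shared the sign of the difference of the brightest. In 5 of the 14 the brightest probe set was of the _x_at or _s_at kind (EZR, PLS1, ESPN, DPP4 and SLC2A5); with those kinds left out, EZR and DPP4 kept their call and ESPN had no value.

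**Figure D3:**
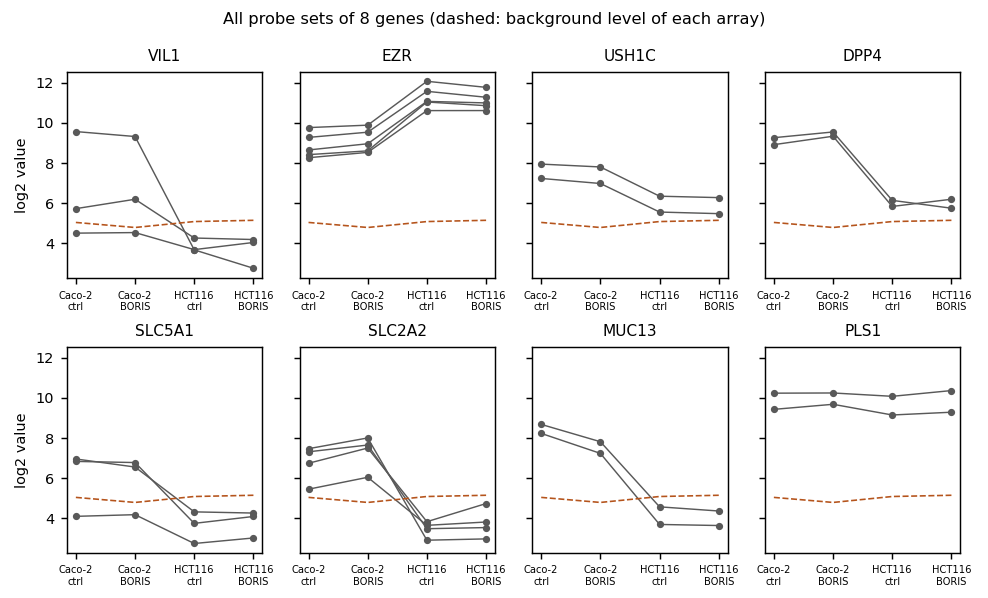
Log2 value (y axis) of every probe set paired alone with 8 of the genes on the 4 arrays (x axis); the dashed line joins the background levels of the arrays. The 5 EZR lines all rise from Caco-2 to HCT116, the 4 SLC2A2 lines all fall, and the 2 PLS1 lines differ little between the lines.

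Other genes of the absorptive cell, listed apart from the set, also had calls in both directions. Of 46 measured, 20 lay at background on all arrays and 22 were expressed; of these 8 were higher in Caco-2, 4 were higher in HCT116 and 10 did not pass the test, beside the 19.8% and 19.4% of all genes tested. Their median difference was 0.39, beside 2.01 for the 14 genes of the set and -0.01 for all genes tested. The filter shapes these medians, since 5 of the 14 genes passed it through Caco-2 only and 1 through HCT116 only. The lists were not tested against each other. KRT20, a keratin of differentiated gut epithelium, read 11.59 and 12.04 in Caco-2 and 5.43 and 5.72 in HCT116, a limma difference of 6.24 (standard error 0.18). SLC40A1, the iron exporter ferroportin, was higher in Caco-2 by at least 2.41, and CYBRD1, an iron reductase of the brush border, was higher in HCT116, where it read 7.64 and 8.08 against 4.04 and 3.66 in Caco-2. PEPD, a cytosolic dipeptidase, read 3.48 and 3.24 in Caco-2, at background, and 8.85 and 8.24 in HCT116.

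Of 18 measured transcription factors of the intestinal lineage, 14 were expressed, all of them in Caco-2 and 12 in HCT116. Of these, 8 were higher in Caco-2 and 1 was higher in HCT116, beside the 19.8% and 19.4% of all genes tested. A factor expressed in Caco-2 only reached the median there and not in HCT116, which favours a difference, so the filter shapes these counts. FOXA1, a pioneer factor of endoderm, read 9.74 and 9.92 in Caco-2 and 5.60 and 6.18 in HCT116 (limma difference 3.94, standard error 0.19). FOXA2 was higher in Caco-2 by at least 2.04, FOXA3 by 1.80 and GATA6 by 2.44, each past the test. The factor higher in HCT116 was CDX2, a regulator of intestinal identity named here after its value was seen, at 7.23 and 6.91 in HCT116 against 5.77 and 5.19 in Caco-2. Its difference was -1.59 with a limma adjusted p of 0.0015.

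**Figure D4:**
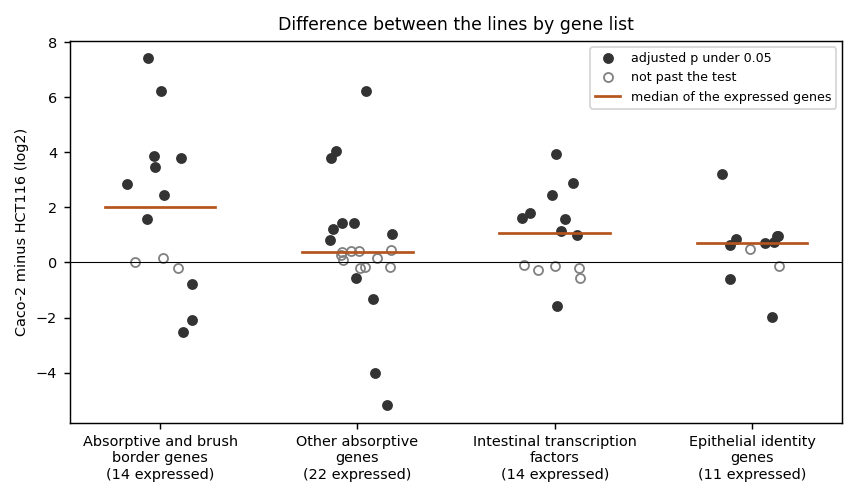
Caco-2 minus HCT116 in log2 units (y axis) for the expressed genes of the set and of 3 other lists (x axis); filled points passed the limma test and the bar is the median. All 4 lists hold genes on both sides of 0.

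Markers of other cell types were called in both directions, beside the 19.8% of all genes tested that were higher in Caco-2 and the 19.4% higher in HCT116. The filter shapes the counts below, since some markers passed it through 1 line only. Goblet cell markers were expressed in Caco-2 in 4 cases and in HCT116 in 2, stem cell markers in 7 and 5, and hepatocyte markers in 4 and 2. Among goblet cell markers, 4 of 10 were expressed and 3 were higher in Caco-2; AGR2 read 10.79 and 10.60 there against 4.62 and 4.65 in HCT116, while MUC2 lay at background. LYZ, lysozyme, the only expressed one of 6 Paneth cell markers, read 13.26 and 13.12 in Caco-2 and 4.13 and 4.68 in HCT116, while the defensins DEFA5 and DEFA6 lay at background on all arrays. Of 10 measured stem cell markers, 7 were expressed and 6 were higher in Caco-2, among them ASCL2 by at least 3.33. Of 11 measured enteroendocrine markers 2 were expressed, and SCG2, a granin of secretory granules, was higher in HCT116, at 7.25 and 7.97 against 2.85 and 3.15, at background, in Caco-2. Hepatocyte markers were expressed in 5 of 16 cases, 3 of them higher in Caco-2, with SERPINA1 at 11.47 and 11.89 against 6.22 and 5.86, and ALB lay at background. CPS1, a urea cycle enzyme of the same list, was higher in HCT116, at 7.69 and 7.31 against 3.90 and 3.61, at background, in Caco-2. Summed on the linear scale over the whole list, levels were 2095 to 2350 in Caco-2 and 280.3 to 292.4 in HCT116 for goblet cell markers, 8971 to 9879 and 93.5 to 114 for Paneth, 3408 to 3764 and 1850 to 2539 for stem cell and 3920 to 5270 and 434 to 501 for hepatocyte markers. For enteroendocrine markers the sums were 155 to 162 in Caco-2 and 307 to 433 in HCT116. These sums add different probes, genes at background included, and single genes carry them: on the Caco-2 arrays LYZ held 99.1% of the Paneth sum, AGR2 74.1 to 75.5% of the goblet sum and SERPINA1 72.1 to 72.3% of the hepatocyte sum. In HCT116 no Paneth marker reached the array median. What part the mixture of lineages has in the absorptive genes was not tested.

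The next question was whether BORIS siRNA moved the absorptive genes. In Caco-2, 0 of the 13 expressed genes differed by 2-fold or more, where 0.318% of all 10389 expressed genes did (0.279% higher and 0.0385% lower). In HCT116 it was 0 of 9, where 1.82% of 10631 did (0.508% higher and 1.31% lower). With so few genes a count of 0 is near these backgrounds, and with 1 array per group a difference has no replicate check and no p-value. With BORIS siRNA, 5 genes read higher and 8 lower in Caco-2, where 49.4% of all expressed genes read lower, and their median was -0.14 beside 0.00 for all. In HCT116, 4 read higher and 5 lower, where 55.4% of all read lower, with a median of -0.07 beside -0.05.

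The widest difference in Caco-2 was that of MUC13, lower by 0.86 on the log2 scale, from 8.68 to 7.82, with its second probe set lower as well, from 8.23 to 7.24. CA2 stood next on that side, at 10.40 with control and 9.73 with BORIS siRNA, a difference of -0.66 from 1 probe set. On the other side SLC2A2 went from 6.75 to 7.51, a difference of 0.76, and all 4 of its probe sets read higher with BORIS siRNA in that line. The other SLC2A2 probe sets differed by less, at 0.59, 0.54 and 0.34. In HCT116 the MUC13 and SLC2A2 values lay at background with both siRNAs and have no fold, and CA2 differed by -0.08.

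The remaining genes of Caco-2 lay between -0.40 for SLC5A1 and 0.29 for DPP4. The second SLC5A1 probe set above background went only from 6.84 to 6.78. VIL1 differed by -0.25 and, as the mean of its 3 probe sets, by 0.08, so its sign depends on the probe set. AADAC stood at -0.35, LGALS4 at -0.12, USH1C at -0.14 and SLC2A5 at -0.20, and EZR at 0.12, ESPN at 0.15 and PLS1 at 0.01.

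In HCT116 the highest value belonged to AADAC, which went from background, at 4.94, to 5.73 with BORIS siRNA, a difference of at least 0.64. FABP6 differed by 0.40, from 6.69 to 7.08, and ESPN by 0.39, from 7.03 to 7.42. DPP4 stood at -0.39 with the brightest probe set, 6.15 to 5.76, while its other probe set went from 5.84 to 6.20. SLC2A5 stood at -0.35 and EZR at -0.30, but with the _x_at and _s_at probe sets left out these became 0.22 and 0.0018, so the sign of both is unsettled. USH1C stood at -0.07 and PLS1 at 0.29. These values lie beside a median difference of 0.88 over the poly-A spike-ins between the same 2 HCT116 arrays and of -0.08 between the Caco-2 arrays. Over all HCT116 genes, 54 were higher and 139 lower at 2-fold or more, and 86 and 111 after quantile normalization.

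**Figure D5:**
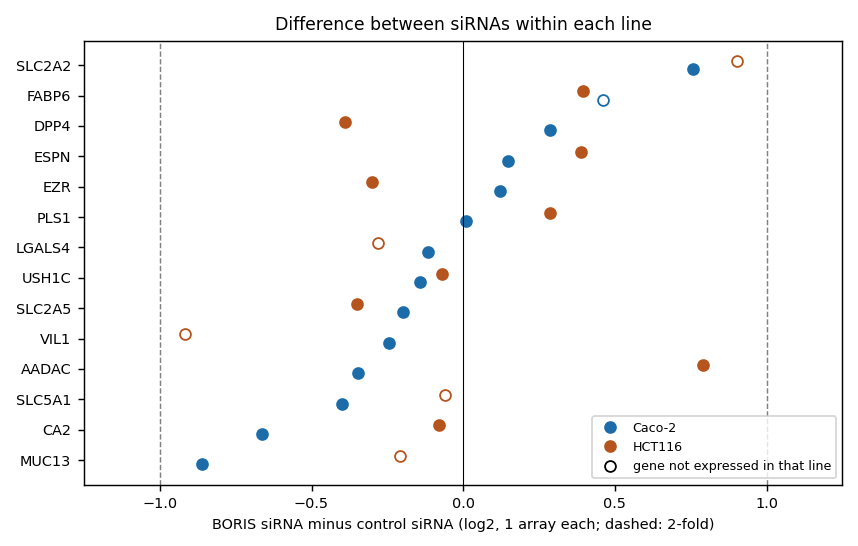
BORIS siRNA minus control siRNA in log2 units (x axis) for the 14 genes expressed in at least 1 line, in Caco-2 and HCT116, with 1 array on each side and no error; open circles mark a line where the gene was not expressed and dashed lines mark 2-fold. No point passes 2-fold, and filled points of AADAC, DPP4 and EZR lie on opposite sides of 0 in the 2 lines, though the HCT116 sign of DPP4 and EZR turns with another probe set.

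An effect of BORIS siRNA common to both lines was tested in the same limma fit with cell line as the block. None of the 14 genes passed it, with 0 of 11165 genes past it in all (0.0%), against 44 higher and 38 lower over all genes, and still none of the 14, after quantile normalization; 2 of the 14 had an unadjusted p under 0.05, as 6.0% of all genes did. These were SLC2A2, with an unadjusted limma p of 0.0072 and an adjusted p of 0.77, and VIL1, with an unadjusted p of 0.044, although both lay at background in HCT116. The SLC2A2 value rests on a probe set that differed by 0.90 in HCT116, while its other probe sets differed there by 0.17, 0.06 and 0.07. Of the 8 genes expressed in both lines, the siRNA differences had the same sign in 5 and opposite signs in 3.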

How the data were processed

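Total RNA was labelled with a 3′ IVT kit and hybridised to PrimeView arrays, 1 per group, per the labels. The authors' deposited table holds 1 log2 value for each probe set and array; how background, normalization and summarisation were handled is not given in the sources used here. A difference of log2 values can therefore reflect the unstated normalization as well as the RNA. GEO's platform annotation gave the names: 44988 of 49395 were paired with 1 gene, 1832 with several and 2569 were not listed. In the other gene lists, 1 older symbol was updated through RefSeq. PDZK1 included, 13 listed genes had no probe set of their own and their levels were not analysed here. Values at background were raised to it and the difference given as a least value. The line difference and the shared siRNA effect came from limma, version 3.58.1, under R 4.3.3 (lmFit, eBayes with trend, line and siRNA as terms, Benjamini-Hochberg adjusted p under 0.05); siRNA differences within a line were counted at 2-fold with no test. The fit was also run on simulated arrays with independent noise drawn from its own variances, which cannot check whether those variances hold for these data. All genes of the set could be named; of other lists, up to 4 with the largest line difference or, for markers of other cell types, the brightest; CDX2, GPA33, MUC2, DEFA6 and ALB fall outside this rule and were named after their values were seen. The members and lists were chosen with earlier results of these data known. The number of arrays limits the precision.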

Additional observations from a re-analysis of the deposited data

Results flagged for a closer look

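AADAC differed in opposite directions with BORIS siRNA in the 2 lines, by -0.35 in Caco-2 and by 0.79 in HCT116, the latter starting from a value at background. The difference between the lines was not tested, since each value comes from 1 array per siRNA.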

How the results depend on the processing

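No paired analysis was possible because each group holds 1 array and the labels give no replicate numbers beyond it. The 8 genes called higher in Caco-2 numbered 8 under every alternative with a test: no filter, a filter at the olfactory receptor level, the mean of all probe sets, no _x_at and _s_at probe sets, quantile or cyclic loess normalization, 16 added on the linear scale, no trend, no siRNA block, and each array left out without that block. Those higher in HCT116 numbered 2 to 4; ESPN lost its call without 3 of the arrays in turn, and SLC15A1 was added without a filter. Over the settings the line difference ran from 2.87 to 6.68 for VIL1. PLS1 turned to -0.045 after quantile and -0.022 after cyclic loess normalization, to -0.12 on the BORIS siRNA arrays alone and to -0.12 without the HCT116 control array. CA2 turned to -0.13 on the BORIS siRNA arrays alone and to -0.17 without the Caco-2 control array. Neither had passed the test, and the cause was not tested. The counts of 0 genes at 2-fold with siRNA in each line, and of 0 past the shared test, stayed at 0 under the alternatives run, while over all genes the shared test called 44 higher and 38 lower after quantile, and 59 higher and 42 lower after cyclic loess normalization. Signal at background on all arrays limits 23 of the 40 genes.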
